A study of Mus musculus with 21 samples.

Results

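The data described here are 2 single-cell RNA libraries of mouse CD8 T cells that were cultured to day 10 with IL-2v, a variant of interleukin-2, at 50 IU/mL or at 5 IU/mL. They are defined by cytokine, dose and day, with no measured value in the rule, and every barcode of each deposited table was used. The 50 IU/mL library held 5090 cells and the 5 IU/mL library 6181 cells, together 11271 of the 106458 cells in the series and 2 of its 21 libraries. Both cultures began as naive OT1 CD8 T cells, which carry a transgenic receptor for an ovalbumin peptide, and all were activated on day 0 with bead-bound antibodies against CD3 and CD28. The treatment labels name the cytokine as mutant IL-2bg. The age, sex and number of mice are not given in the sources used here, and nothing in the labels ties a library to a culture or a mouse. The growth protocol describes culture, while the extraction protocol speaks of sorted tumour-infiltrating CD8 T cells, and which of them applies to these libraries is not settled by the labels. Each condition of the series had 1 library, so no test was possible. Differences are given as sizes with counting error, and they compare these 2 libraries. The other libraries used were those of IL-2v on days 3 and 5, of IL-2 and IL-15 on day 10, each at 50 and 5 IU/mL, and of naive OT1 cells on day 0.

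Interleukin-2 acts on T cells through a receptor made of a beta chain (Il2rb) and a common gamma chain (Il2rg), to which an alpha chain (Il2ra, also called CD25) adds affinity. The chains signal through the kinases JAK1 and JAK3 to the transcription factor STAT5, and also through the PI3K and MAP kinase pathways. In CD8 T cells a strong interleukin-2 signal is known for driving growth, glycolysis and the genes of cytotoxic granules, and for shutting down the transcription factors and surface receptors that naive and memory cells use to stay in lymph nodes.

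The libraries were of like depth. They held 27293158 UMIs (unique molecular identifiers, each marking 1 captured RNA molecule) at 50 IU/mL and 32648496 at 5 IU/mL, with medians of 4926 and 4780 UMIs and of 1657 and 1627 genes per cell. Their barcode sequences overlapped in 9 cases, which is 0.177% of the barcodes at 50 IU/mL. Mitochondrially encoded genes took 4.85% of the UMIs at 50 IU/mL and 4.17% at 5 IU/mL, and 2496 and 927 cells were above 5%, none above 10%. All 10 markers of CD8 T cells were present and summed to 5541 and 4999 CPM (UMIs scaled to a common total per library). Foxp3, Ms4a1, Lyz2, Csf1r, Adgre1, Flt3, Ncr1, Hbb-bt and Pf4 were at 0 in both libraries, and Cd4 was at 0.0733 CPM at 50 IU/mL and 0 at 5 IU/mL. Summed levels were 1.54 and 4.50 CPM for the 4 B cell markers and 6.08 and 1.47 CPM for the 5 myeloid markers, the latter mainly Cd68. The gamma delta T cell markers Trdc and Tcrg-C1 summed to 132 CPM at 50 IU/mL and 223 CPM at 5 IU/mL, and a Trdc UMI was found in 26.2% of naive cells at matched depth, against 17.2% and 24.7% here. Without thinning the shares were 34.6%, 28.5% and 39.4%, and the naive library lay below the 5 IU/mL one. Also without thinning, the T cell receptor beta chain gene Trbc2 was found in 96.9% and 98.7% of cells at 50 and 5 IU/mL, and Tcrg-C1 in 6.35% and 11.9%. A Trdc UMI therefore does not by itself mark a gamma delta T cell. Whether such cells were present, and their part in the differences below, was not tested.

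Expression was compared as CPM over the summed UMIs of each library, with exact Poisson 95% intervals that cover counting error only, and differences as log2(CPM + 1) at 50 minus 5 IU/mL, which shrinks the differences of genes with few UMIs. Of 5618 genes with at least 20 CPM in either library, 282 were at least 2-fold higher at 50 IU/mL (5.02%) and 345 at least 2-fold lower (6.14%), 11.2% in all. The median of all these genes stood at −0.13, so a list's median is read against that value. The split between higher and lower genes moved with the scaling and with the cells counted. It was 314 to 299 with TMM scaling (trimmed mean of M values) and 324 to 236 among cells lacking UMIs of the proliferation genes Mki67 and Top2a. A summed level cannot tell more cells from more RNA per cell, so shares of cells are given beside the main genes, after each cell was thinned to 2000 UMIs. This kept 4948 and 6123 cells and 4471 naive cells, with medians of 4994.5, 4799 and 3869 UMIs before thinning, and left out 142, 58 and 306. The naive share gives the level before activation. It does not measure free RNA in the day 10 libraries, whose share of the UMIs was not tested, so a share of cells with a UMI is not a share of cells expressing the gene.

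**Figure D1:**
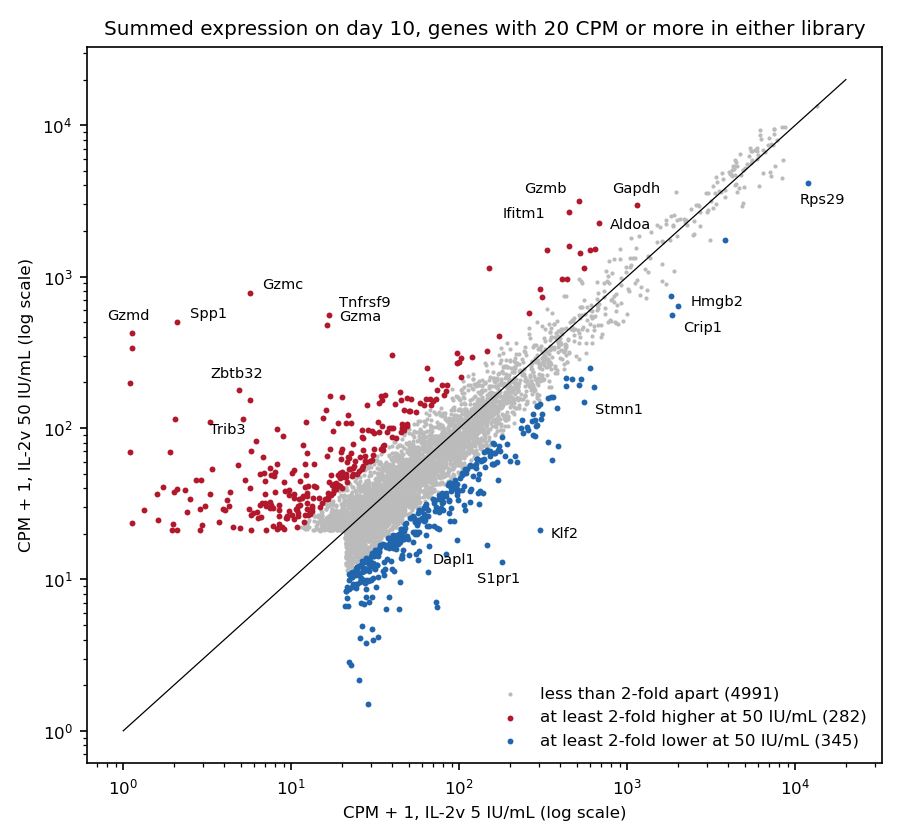
Summed expression of each gene in the 5 IU/mL library (x axis, CPM + 1) against the 50 IU/mL library (y axis, CPM + 1), both on log scales, on day 10. Each point is a gene with at least 20 CPM in either library, 282 in red and 345 in blue being at least 2-fold higher or lower at 50 IU/mL, and the line marks equal levels. Gzmc, Gzmd and Spp1 lie far to the upper left, while Gzmb lies above the line farther to the right. Klf2 and S1pr1 lie farthest below the line among the labelled genes.

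The higher dose went with far more RNA of the cytotoxic granule, the store of proteases and pore-forming protein with which CD8 T cells kill. Of 18 listed granule genes, 16 reached 20 CPM, and 10 of them were higher by 2-fold or more at 50 IU/mL and 0 lower, with a median difference of 2.48. Gzmb, the main granzyme of CD8 T cells, stood at 3143 CPM (3122 to 3164) at 50 IU/mL and 512 CPM (504 to 520) at 5 IU/mL, a ratio of 6.14 (6.04 to 6.24). A Gzmb UMI was found in 94.1% of cells (93.4% to 94.7%) at 50 IU/mL, 54.6% (53.4% to 55.9%) at 5 IU/mL and 0.738% of naive cells, or in 97.7%, 75.7% and 1.09% without thinning. Perforin (Prf1), which forms the pores, was at 76.5 and 10.8 CPM, with a UMI in 10.1% and 2.22% of cells. Its share in naive cells was 7.25%, so the 5 IU/mL library lay below the naive library. Also at least 2-fold higher were the granzyme inhibitor Serpinb9, at 107 and 20.3 CPM, and Serpinb6b, at 101.4 and 33.8 CPM. On the log2(CPM + 1) scale the listed genes within 2-fold were Fasl (38.7 and 18.9 CPM), Nkg7 (1529 and 901 CPM), Srgn (469 and 310 CPM), Ctsw (236 and 226 CPM), Lamp1 (82.6 and 93.9 CPM) and Ctsc (36.5 and 64.4 CPM). Gzmk and Gzmm were below 20 CPM in both libraries.

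A group of granzymes that lie beside Gzmb on chromosome 14 was among the genes farthest apart between the doses. Gzmd (chr14:56129556-56132608, minus strand, GRCm38) had 11583 UMIs at 50 IU/mL and 4 at 5 IU/mL, which is 424 CPM (417 to 432) against 0.123 CPM (0.0334 to 0.314) and a ratio of 3464 (1353 to 12715). Gzmg had 9233 and 4 UMIs, or 338 and 0.123 CPM. Gzme had 5421 and 3 UMIs and Gzmf 1869 and 3 UMIs, with ratios between 739 and 10485 and between 255 and 3617 by their counting intervals. At 5 IU/mL these genes were therefore at the edge of detection. Gzmc stood at 773 CPM (762 to 783) and 4.69 CPM (3.97 to 5.49), a ratio of 164.9 (140.6 to 194.6). Gzma, a tryptase-like granzyme encoded elsewhere in the genome, was at 475 CPM (467 to 483) and 15.3 CPM (14.0 to 16.7). Gzmd and Gzme share 20.6% and 18.2% of the 50-base words near their transcript ends with other genes, mainly each other, and Gzmg shares 14.4%, so their separate values are uncertain, while Gzmc shares none. Gzmf overlaps a gene on the opposite strand in 16.4% of its exonic bases.

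Unlike Gzmb, the Gzmc to Gzmg group was held by a minority of the cells. A UMI of any of them was found in 25.7% of cells (24.5% to 26.9%) at 50 IU/mL, 0.964% (0.734% to 1.24%) at 5 IU/mL and 0.0671% of naive cells, or in 34.5%, 2.10% and 0.147% without thinning. Gzmc was found in 20.998%, Gzmd in 9.09%, Gzme in 7.54%, Gzmg in 5.96% and Gzmf in 1.35% of cells at 50 IU/mL. The 10% of cells with the largest share of these UMIs held 92.0% of them, while for Gzmb the like figure was 37.8%. The start regions of these genes are shown because these neighbouring genes differed in how far apart the doses were. Each line gives the RefSeq region from 250 bases before to 50 bases after the start (GRCm38.p6, minus strand, read 5′ to 3′), at chr14:56262285-56262584 for Gzmb, chr14:56234608-56234907 for Gzmc, chr14:56132544-56132843 for Gzmd and chr14:56120576-56120875 for Gzme. Capitals mark a match to the AP-1 motif TGANTCA.
Gzmb: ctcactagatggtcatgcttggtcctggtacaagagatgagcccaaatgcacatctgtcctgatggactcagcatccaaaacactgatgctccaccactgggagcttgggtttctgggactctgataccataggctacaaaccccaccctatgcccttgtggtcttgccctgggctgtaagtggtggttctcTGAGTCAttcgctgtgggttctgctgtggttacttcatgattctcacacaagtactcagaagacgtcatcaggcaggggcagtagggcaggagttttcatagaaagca
Gzmc: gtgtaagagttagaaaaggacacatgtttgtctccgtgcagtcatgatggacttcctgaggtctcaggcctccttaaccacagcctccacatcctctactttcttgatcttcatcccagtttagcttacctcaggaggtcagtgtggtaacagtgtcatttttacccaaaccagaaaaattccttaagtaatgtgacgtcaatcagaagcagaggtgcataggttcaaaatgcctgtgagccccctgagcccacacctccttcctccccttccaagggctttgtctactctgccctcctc
Gzmd: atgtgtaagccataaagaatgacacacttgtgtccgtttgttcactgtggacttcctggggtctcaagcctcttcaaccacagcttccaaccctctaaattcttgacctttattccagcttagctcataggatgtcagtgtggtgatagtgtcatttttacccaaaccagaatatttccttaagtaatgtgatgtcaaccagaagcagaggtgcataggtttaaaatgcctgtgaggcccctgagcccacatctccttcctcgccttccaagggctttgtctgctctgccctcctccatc
Gzme: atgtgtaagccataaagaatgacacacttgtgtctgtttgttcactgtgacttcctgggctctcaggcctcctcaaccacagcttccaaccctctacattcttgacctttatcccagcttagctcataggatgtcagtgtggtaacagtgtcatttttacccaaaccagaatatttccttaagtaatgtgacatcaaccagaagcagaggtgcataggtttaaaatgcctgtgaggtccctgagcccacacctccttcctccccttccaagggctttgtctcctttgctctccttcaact
Gzmd and Gzme were 93.4% identical over the aligned bases, Gzmc was 82.7% identical to each of them, and Gzmb was 43.5% to 46.2% identical to the 3 others. The Gzmb window held 1 AP-1 match, 58 bases before the RefSeq start, and 1 match to the STAT5 motif TTCNNNGAA, left in lower case. The other 3 windows held no match to either motif, which says only that these letters are not in these windows.

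Other effector genes differed by more than 10-fold. Spp1, which encodes the secreted protein osteopontin, was at 501 CPM (493 to 510) at 50 IU/mL and 1.10 CPM (0.772 to 1.53) at 5 IU/mL, a ratio of 455 (328 to 650). Its UMIs were found in 24.7% (23.5% to 25.9%) and 0.196% (0.101% to 0.342%) of cells and in 0.0447% of naive cells. Without thinning the shares were 35.8%, 0.550% and 0.0628%. Tnfrsf9, which encodes the costimulatory receptor 4-1BB, was at 556 CPM (547 to 565) and 15.7 CPM (14.4 to 17.1), in 56.9% and 2.53% of cells. It was the only member at least 2-fold apart of the 5 costimulator genes that reached 20 CPM, since Tnfrsf18 (170 and 103 CPM), Tnfrsf1b (21.5 and 18.3 CPM), Cd28 (96.3 and 95.3 CPM) and Icos (27.7 and 28.3 CPM) were within that range. Adam8, a cell surface protease, was at 109 and 2.27 CPM, and Ltb4r1, a receptor for the lipid chemoattractant leukotriene B4, at 114 and 4.13 CPM. Gm36723 was at 113 and 1.04 CPM.

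Transcription factors of effector cells were higher at 50 IU/mL in part, while others were within 2-fold. Of 22 listed genes 11 reached 20 CPM, 6 were higher by 2-fold or more and 0 lower, with a median of 1.47. Zbtb32, a repressor expressed in activated lymphocytes, was at 177 CPM (172 to 182) and 3.89 CPM (3.24 to 4.63), in 28.1% and 0.702% of cells. Nfil3 stood at 109 and 11.2 CPM, Irf8 at 159 and 19.1 CPM, Bhlhe40 at 142 and 27.3 CPM and Maf at 22.1 and 0.980 CPM. Id2, which restrains E proteins in effector cells, was at 831 and 299 CPM, in 71.7% and 38.9% of cells and in 10.3% of naive cells. By contrast Runx3 was at 206 and 229 CPM, Batf at 28.9 and 31.1 CPM and Eomes at 156 and 106 CPM. Tbx21, which encodes T-bet, and Prdm1, which encodes Blimp-1, were below the level for inclusion at 14.4 and 15.7 CPM and at 16.6 and 4.63 CPM, and Tox, linked to exhaustion, was low at 3.19 and 11.1 CPM.

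Inhibitory receptors were mixed. Of 8 measured genes 5 reached 20 CPM, with 3 at least 2-fold higher and 1 lower. Lag3 was at 20.2 CPM (18.5 to 21.9) and 0.9495 CPM (0.645 to 1.35), Entpd1, the ectonucleotidase CD39, at 40.3 and 11.6 CPM, and Ctla4 at 33.6 and 13.6 CPM. Btla went the other way, at 1.17 and 24.4 CPM. Havcr2, which encodes TIM-3, had 428 UMIs (15.7 CPM) at 50 IU/mL and 0 at 5 IU/mL, at least 171-fold higher against a floor of 3 UMIs in the library, and was found in 2.79% of cells against 0 of 6123, which allows a share of cells with a UMI of up to 0.0490% at this depth by the floor of 3 counts. Pdcd1, which encodes PD-1, was at 0.550 and 0.123 CPM. Among 15 measured cytokine and chemokine genes 5 reached 20 CPM and 3 were at least 2-fold higher, Spp1, Lta (25.2 and 8.39 CPM) and Tnf (36.1 and 15.6 CPM), while Ccl5 was at 162 and 290 CPM and Ifng at 2.60 and 1.19 CPM. The killer receptors Klrb1c (36.7 and 3.31 CPM) and Klrk1 (91.5 and 30.0 CPM), the latter encoding NKG2D, were higher, and Klrd1 was at 263 and 352 CPM.

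Genes of naive T cells, mostly of their surface and of their traffic through lymph nodes, were lower at 50 IU/mL. Of 13 genes listed for homing and the naive surface 11 reached 20 CPM, 9 were at least 2-fold lower and 0 higher, with a median of −2.55. Among the lower genes are Dapl1 and Actn1, which do not encode surface receptors. S1pr1, the receptor for sphingosine 1-phosphate that lets T cells leave lymph nodes, was at 12.02 CPM (10.8 to 13.4) at 50 IU/mL and 179 CPM (175 to 184) at 5 IU/mL, 14.9 times lower. Its regulator Klf2 was at 20.3 CPM (18.7 to 22.1) and 302 CPM (296 to 308), 14.8 times lower. Dapl1 was at 15.8 and 144 CPM, Il6ra at 0.513 and 27.5 CPM, Cd7 at 6.08 and 71.2 CPM, Ccr7 at 15.7 and 65.4 CPM and Il7r at 2.82 and 26.95 CPM. The receptors of interleukin-6 and interleukin-7 (Il6ra, Il7r) were thus both low at the higher dose. Cd27 (74.5 and 123 CPM) was within 2-fold, as was Ly6c2 (1001 and 771 CPM). With Ly6c2 included the list took 0.120% and 0.182% of UMIs.

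In single cells the lower levels went with smaller shares of cells. A UMI of Klf2 or S1pr1 was found in 6.04% of cells (5.39% to 6.74%) at 50 IU/mL, 58.0% (56.8% to 59.3%) at 5 IU/mL and 87.6% of naive cells, or in 11.3%, 82.5% and 94.8% without thinning. The Klf2 shares were 3.98%, 42.9% and 75.9%, and those of S1pr1 2.51%, 30.1% and 56.0%. For both of these genes the 5 IU/mL library lay between the 50 IU/mL and the naive library. Cd8b1, a chain of the CD8 coreceptor, had the same order, with a UMI in 41.2%, 61.0% and 78.7% of cells and 284 and 517 CPM at the 2 doses, although Cd8a was at 171 and 193 CPM. Without thinning the Cd8b1 shares were 68.5%, 85.6% and 83.0%, so its 5 IU/mL library then lay above the naive one. Of the 13 listed transcription factors of stemness and quiescence 11 reached 20 CPM, and only Klf2, Tcf7 (17.1 and 95.6 CPM) and Klf3 (6.60 and 37.1 CPM) were at least 2-fold lower, with 0 higher and a median of −0.47. Tcf7, which encodes TCF-1, had a UMI in 3.76%, 17.2% and 57.3% of cells. Lef1 (94.6 and 130 CPM), Foxo1 (46.8 and 65.2 CPM), Bach2 (30.4 and 28.0 CPM) and Satb1 (248 and 369 CPM) were within 2-fold. Id3 did not reach 20 CPM, at 0.696 and 15.5 CPM. Pdcd4, a translation inhibitor that quiescent T cells hold at a high level, was at 75.1 and 386 CPM, and Ripor2 was at 27.9 and 106 CPM.

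**Figure D2:**
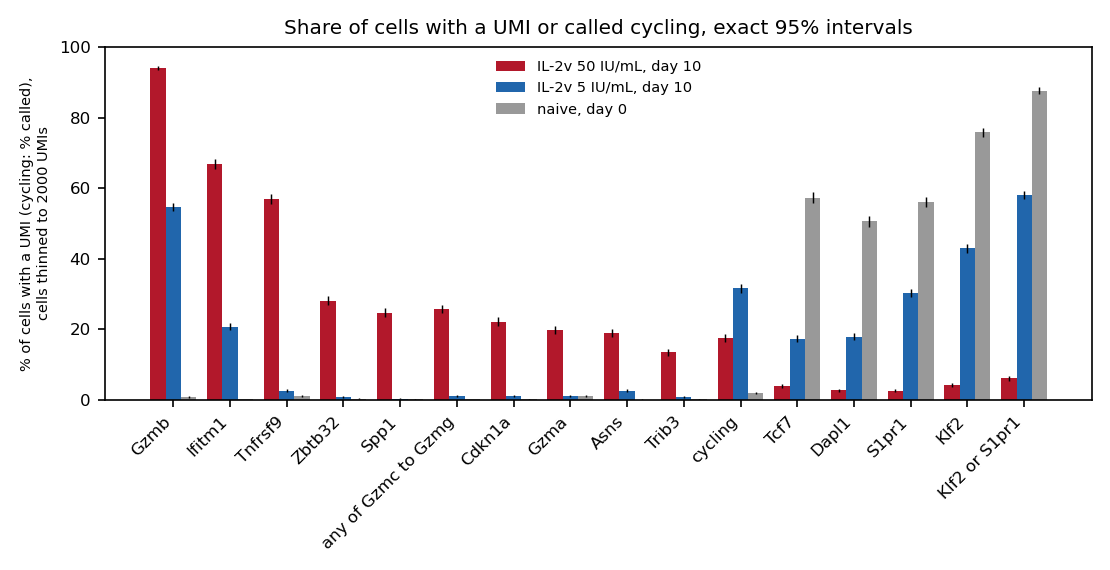
Percentage of cells with a UMI of each gene (y axis), or called cycling by a UMI of Mki67 or Top2a, after thinning to 2000 UMIs, in the 50 IU/mL (red) and 5 IU/mL (blue) libraries of day 10 and the naive library of day 0 (grey). Bars are shares and lines exact Clopper-Pearson 95% intervals over 4948, 6123 and 4471 cells. Effector genes are highest at 50 IU/mL, and for Klf2, S1pr1, Dapl1 and Tcf7 the 5 IU/mL library lies between the other libraries.

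Genes of the receptor and of its nearest targets were mostly within 2-fold. Il2ra was at 117 CPM (113 to 121) at 50 IU/mL and 81.5 CPM (78.5 to 84.7) at 5 IU/mL, Il2rb at 453 and 258 CPM and Il2rg at 161 and 244 CPM, all within 2-fold. Of 7 genes of the receptor and the JAK-STAT5 chain 6 reached 20 CPM and 1 was at least 2-fold higher, Jak3 at 40.8 and 16.6 CPM. Jak3 shares 21.5% of its end sequence with Insl3. Of 14 listed STAT5 feedback and target genes 12 reached 20 CPM, 2 were higher by 2-fold or more and 1 lower, with a median of −0.23. Cish, which encodes an inhibitor of cytokine signalling induced by STAT5, was at 150 CPM (145 to 154) and 69.2 CPM (66.4 to 72.1), and Lrrc32 at 68.8 and 18.7 CPM. Socs2, another inhibitor of this kind, was at 53.4 and 106 CPM and Socs1 at 111 and 131 CPM. Pim1, a kinase gene, was at 234 and 204 CPM, Bcl2 at 550 and 641 CPM and the growth regulator Myc at 67.0 and 162 CPM. The listed STAT5 genes therefore did not share a direction. The Cish start region is shown as the reference for a STAT5 target, at chr9:107296409-107296708 (GRCm38.p6, plus strand), with matches to TTCNNNGAA in capitals.
Cish: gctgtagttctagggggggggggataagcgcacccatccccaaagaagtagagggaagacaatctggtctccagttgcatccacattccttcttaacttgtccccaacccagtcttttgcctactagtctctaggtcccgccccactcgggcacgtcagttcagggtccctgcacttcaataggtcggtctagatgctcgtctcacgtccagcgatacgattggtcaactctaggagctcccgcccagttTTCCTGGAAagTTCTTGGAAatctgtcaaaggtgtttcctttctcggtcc
The matches began at base 1 and base 12 counted from the RefSeq start. The end of the Cish window, and of those of Gzmb and Trib3, was not found near the start of a GENCODE transcript. This search cannot tell a different start from a short first exon. Positions therefore hold for the RefSeq start only.

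Enzymes of glycolysis were higher at 50 IU/mL across the pathway and across the cells. Of 18 listed genes 17 reached 20 CPM, 11 were at least 2-fold higher and 0 lower, and the median was 1.24. They ran from sugar uptake to pyruvate. The glucose transporter gene Slc2a3 was at 107 and 21.6 CPM, Aldoa at 2273 CPM (2255 to 2291) and 680 CPM (671 to 689), Gapdh at 2959 and 1141 CPM, Pgk1 at 1521 and 643 CPM, Pkm at 1486 and 597 CPM, and the lactate exporter gene Slc16a3 at 25.1 and 7.41 CPM. Slc2a1 (34.5 and 19.9 CPM), Ldha (1256 and 773 CPM), Hk2 (46.3 and 33.6 CPM) and Hk1 (40.9 and 40.3 CPM) were within 2-fold, as were Pfkl (36.5 and 23.3 CPM) and Pgam1 (213 and 166 CPM). Gapdh shares 35.9% and Eno1 (965 and 436 CPM) 38.8% of their end sequences with near copies. The listed genes took a median of 1.26% of a cell's UMIs at 50 IU/mL, with 10th and 90th percentiles of 0.808% and 1.78%, against 0.452%, 0.244% and 0.949% at 5 IU/mL. As many as 99.3% of cells at 50 IU/mL were above the 5 IU/mL median. The Gzmb share showed a like shift, with medians of 0.215% and 0.0377% and 94.9% of cells above.

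**Figure D3:**
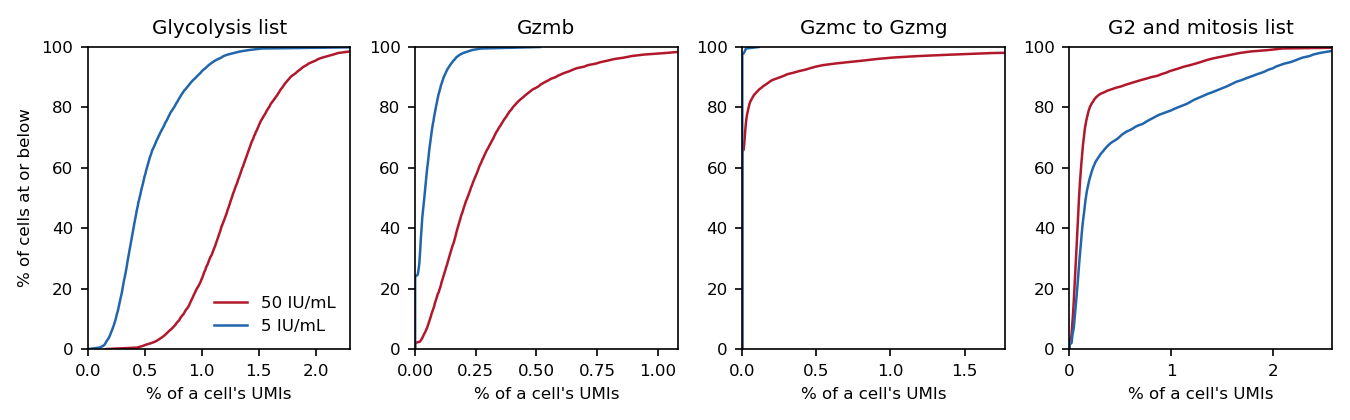
Cumulative distributions over the cells of each day 10 library (50 IU/mL red, 5 IU/mL blue) of the percentage of a cell's UMIs (x axis) from the glycolysis list, Gzmb, Gzmc to Gzmg together, and the G2 and mitosis list, with the percentage of cells at or below that value on the y axis. The glycolysis curves are displaced along their whole length, from a median of 0.452% to 1.26%, while for Gzmc to Gzmg most cells of both libraries sit at 0 and the red curve has a long tail.

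The other routes of energy metabolism were near the level of all genes. Of 82 nuclear genes of oxidative phosphorylation that reached 20 CPM 0 were higher by 2-fold or more and 2 lower, with a median of −0.25, and their share of a cell's UMIs had a median of 2.09% at 50 IU/mL and 2.43% at 5 IU/mL. The 13 mitochondrially encoded genes had a median of 0.16 and none was 2-fold apart. With cells above 5% mitochondrial UMIs or under 500 genes left out that median was −0.18, but this filter picks cells by the level compared. Above 5% were 2496 of 5090 cells at 50 IU/mL and 927 of 6181 at 5 IU/mL, so the value is not a check of the difference. Fatty acid oxidation had 0 of 12 genes at least 2-fold apart (median 0.18), fatty acid synthesis 0 of 9 (median −0.25) and cholesterol synthesis 1 of 22, Acat2 at 18.5 and 40.0 CPM (median −0.21). Among cells lacking both Mki67 and Top2a UMIs, the medians of the last 2 lists were 0.14 and 0.09.

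Amino acid uptake and the targets of ATF4, the transcription factor of the integrated stress response, formed another group that was higher at 50 IU/mL. Of 24 listed genes 19 reached 20 CPM, 11 were higher by 2-fold or more and 0 lower, with a median of 1.23. Trib3, a pseudokinase gene induced by ATF4, was at 81.5 CPM (78.1 to 84.9) and 5.15 CPM (4.397 to 5.99), Asns, asparagine synthetase, at 116 and 14.4 CPM, Ddit3, which encodes CHOP, at 131 and 15.2 CPM, Atf5 at 35.6 and 2.30 CPM and Sesn2 at 23.1 and 2.73 CPM. The large neutral amino acid transporter was higher in both chains, Slc7a5 at 249 and 63.5 CPM and Slc3a2 at 210 and 66.8 CPM. Atf4 itself was at 311 and 95.6 CPM. The serine synthesis genes differed less, Phgdh at 268 and 173 CPM, Psat1 at 134 and 76.4 CPM and Psph at 38.7 and 49.7 CPM, and of the mitochondrial folate enzymes Mthfd2 was at 155 and 65.9 CPM and Shmt2 at 98.9 and 75.04 CPM. A Trib3 UMI was found in 13.4% and 0.719% of cells and an Asns UMI in 18.9% and 2.43%. Their naive shares were 0.0447% and 0 of 4471 cells, and the latter by the same floor allows up to 0.0671% of cells with a UMI. At 50 IU/mL, 5 IU/mL and in naive cells the shares were 20.1%, 3.33% and 4.65% for Ddit3 and 41.7%, 15.4% and 12.4% for Atf4. For Ddit3 the 5 IU/mL library thus lay below the naive library. The start regions of Asns (chr6:7693160-7693459) and Trib3 (chr2:152344011-152344310), both on the minus strand of GRCm38.p6, each held 1 match to the ATF4 motif TGATGNAA, in capitals, which in Trib3 is on the opposite strand.
Asns: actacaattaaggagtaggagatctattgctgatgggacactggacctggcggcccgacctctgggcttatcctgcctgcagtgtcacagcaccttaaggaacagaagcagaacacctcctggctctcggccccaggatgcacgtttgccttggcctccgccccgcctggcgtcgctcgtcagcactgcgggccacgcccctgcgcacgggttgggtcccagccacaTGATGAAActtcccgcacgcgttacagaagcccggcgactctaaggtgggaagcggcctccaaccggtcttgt
Trib3: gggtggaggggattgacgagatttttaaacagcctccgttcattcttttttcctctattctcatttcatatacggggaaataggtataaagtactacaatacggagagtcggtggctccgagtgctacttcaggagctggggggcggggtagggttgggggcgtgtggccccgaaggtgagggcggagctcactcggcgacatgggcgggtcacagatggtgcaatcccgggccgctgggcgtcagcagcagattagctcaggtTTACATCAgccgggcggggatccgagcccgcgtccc
The Asns match began 23 bases before the RefSeq start, and the Trib3 match at base 15 counted from it.

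The same motifs were counted over all start regions of this length, on both strands. Of the 5618 genes compared 4515 had a RefSeq region, among them 215 of the higher and 276 of the lower genes. TGATGNAA was found in 6.51% of the higher, 1.81% of the lower and 2.21% of all genes compared, and in 4.06% of all 27025 regions. TGANTCA, the AP-1 motif, was found in 11.6%, 2.54%, 4.50% and 7.93%, and TTCNNNGAA in 8.84%, 7.61%, 6.80% and 8.47%. The FOXO motif GTAAACA was found in 1.86% of the higher, 3.62% of the lower and 2.66% of all genes compared. AP-1 and ATF4 matches were thus more frequent among higher genes than among all genes compared, in 25 and 14 of 215 genes, and the shares of STAT5 matches lay closer together. These are descriptions of letters and were not tested. Among genes of AP-1 subunits and related early genes, Jun was at 154 and 50.6 CPM, Junb at 102 and 48.1 CPM and Jund at 746 and 421 CPM, and Fos was at 1.17 and 0.490 CPM. Of 5 early genes that reached 20 CPM 3 were higher by 2-fold or more and 0 lower, with a median of 1.07.

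Genes of proliferation were lower at 50 IU/mL. Of 37 genes of DNA replication and S phase that reached 20 CPM 0 were at least 2-fold higher and 23 lower (median −1.21), and of 43 genes of G2 and mitosis 1 was higher and 30 lower (median −1.17). The replication helicase gene Mcm6 was at 56.7 and 156 CPM, Pcna at 111 and 270 CPM, the ribonucleotide reductase gene Rrm2 at 23.4 and 87.1 CPM and the S phase cyclin gene Ccne2 at 3.11 and 24.8 CPM. Top2a was at 190 and 513 CPM, the chromatin protein gene Hmgb2 at 640 and 2004 CPM, the tubulin-binding Stmn1 at 148 and 553 CPM, Nusap1 at 36.3 and 137 CPM and the linker histone gene Hist1h1b at 59.0 and 219 CPM. The exception was Psrc1, which encodes a spindle protein, at 35.1 and 8.70 CPM. Fen1 (18.0 and 42.9 CPM) overlaps a gene on the opposite strand in 78.8% of its exonic bases. With cycling taken as a UMI of Mki67 or Top2a, 17.4% of cells (16.4% to 18.5%) were cycling at 50 IU/mL, 31.5% (30.3% to 32.7%) at 5 IU/mL and 1.83% of naive cells. Without thinning the shares were 25.01%, 40.6% and 3.01%. The intervals did not overlap, but they cover counting error within 1 library per dose and not the spread between libraries. The doses kept this order under each other rule tried on the same libraries. By at least 3 UMIs of the cell cycle lists the shares were 60.9%, 77.2% and 72.8%, so the naive library then lay above the 50 IU/mL one.

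Some inhibitors of the cell cycle were among the higher genes. Of 12 listed D cyclins, CDKs and CDK inhibitors 10 reached 20 CPM, with 3 at least 2-fold higher, 1 lower and a median of 0.19. Cdkn1a, which encodes p21, was at 152 CPM (148 to 157) and 4.66 CPM (3.94 to 5.46), in 22.1% and 0.947% of cells and 0.0224% of naive cells. Cdkn2b and Cdkn2a, of the INK4 family, were at 24.9 and 5.64 CPM and at 64.7 and 26.3 CPM. Their relative Cdkn2c was lower at 12.2 and 37.98 CPM, and Cdkn1b, which encodes p27, was at 59.0 and 68.9 CPM. Of 10 other p53 target genes that reached 20 CPM 1 was at least 2-fold higher, Zmat3 at 25.6 and 11.6 CPM, and 0 lower, with a median of 0.11. Mdm2 was at 28.8 and 28.4 CPM. Of 5 genes of the BCL2 family list that reached 20 CPM 1 was at least 2-fold higher and 0 lower, with a median of 0.38. The higher gene, Bcl2a1b, was at 36.5 and 1.01 CPM. It shares 66.7% of its end sequence with Bcl2a1d, so its copies cannot be told apart.

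The granule and homing differences were present in cells with and without a Mki67 or Top2a UMI. The 1273 and 2511 cells with a Mki67 or Top2a UMI had 259 genes at least 2-fold higher at 50 IU/mL (4.48%) and 197 lower (3.4%) of 5786, and the 3817 and 3670 cells without had 324 higher (6.05%) and 236 lower (4.41%) of 5354. Gzmb was at 2389 and 495 CPM in the former and at 3465 and 529 CPM in the latter. Klf2 was at 21.4 and 255 CPM in the former and at 19.9 and 350 CPM in the latter. In both kinds of cell 10 of 16 granule genes were higher and 0 lower, with medians of 2.10 and 2.70, and the homing list had medians of −2.12 and −2.94. The S phase and mitosis lists had medians of −0.75 and −0.61 within cells with a Mki67 or Top2a UMI, where 7 of 40 and 6 of 50 members were at least 2-fold lower, and of −0.62 and −0.28 in the cells without, where 4 of 18 and 3 of 16 were lower, but both genes that chose the cells belong to the mitosis list. Some smaller differences passed 2-fold only outside these cells, such as Jak3, Mt1 and Cdkn2a, with log2 differences of 0.98, 0.69 and 0.88 in the cells with a UMI.

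**Figure D4:**
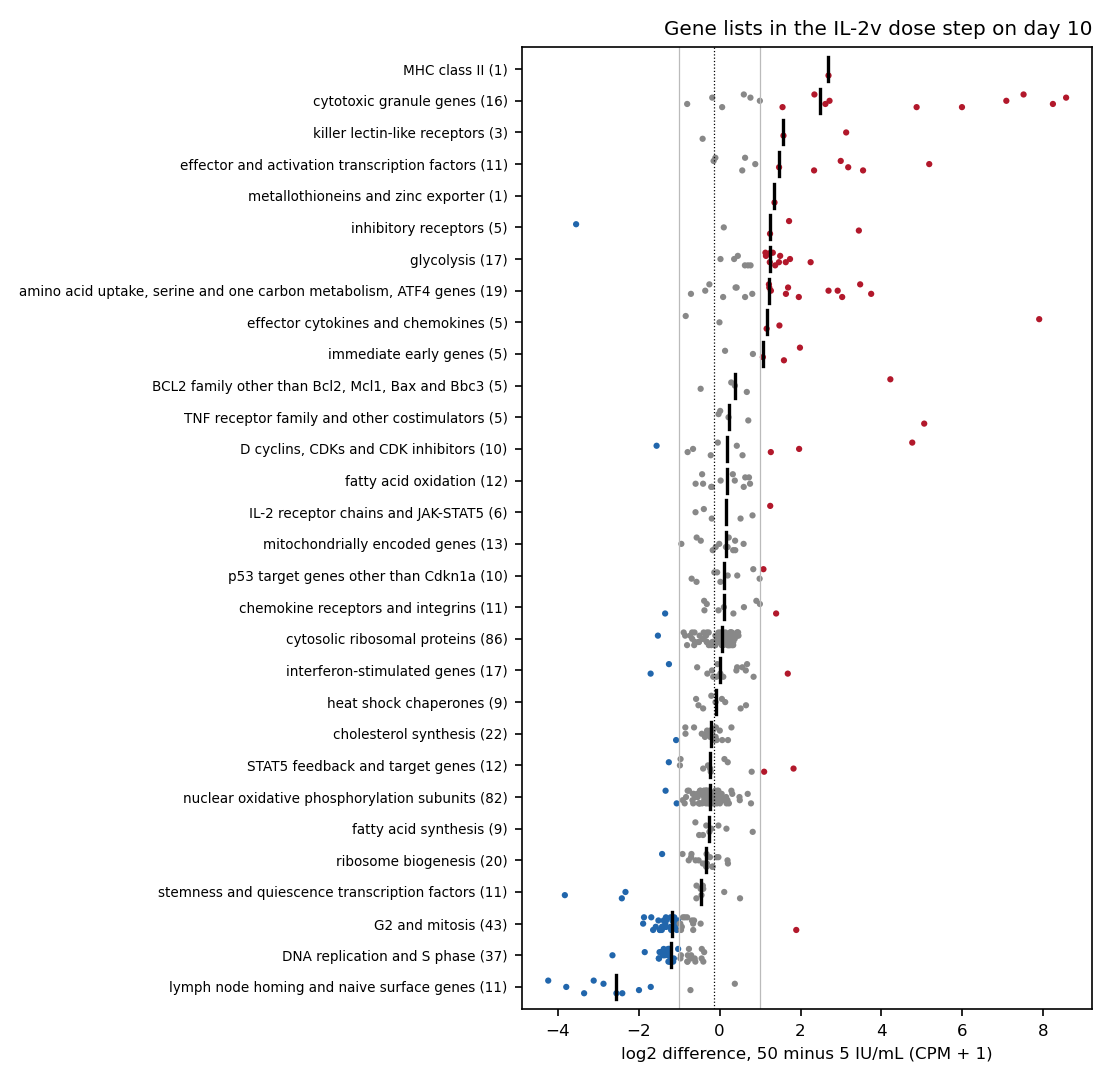
Log2 differences of CPM + 1 at 50 minus 5 IU/mL (x axis) for the members of each gene list that reached 20 CPM in either library, with their number in parentheses. Points are genes, red at least 2-fold higher and blue at least 2-fold lower, bars are list medians, solid grey lines mark 2-fold and the dotted line the median of all 5618 genes (−0.13). Granule, glycolysis and amino acid lists lie to the right, and cell cycle and homing lists to the left.

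Several genes outside these groups were far apart between the doses. Ifitm1, of a family of interferon-inducible membrane proteins, was at 2669 CPM (2649 to 2688) and 450 CPM (442 to 457), in 66.8% and 20.6% of cells and 0.0895% of naive cells. The interferon-stimulated genes as a list did not move with it, since of 17 that reached 20 CPM 1 was at least 2-fold higher, Isg15 at 157 and 48.0 CPM, and 2 lower, Ifi47 at 67.0 and 161 CPM and Ifi203 at 64.4 and 212 CPM, with a median of 0.02. H2-Ab1, a class II MHC gene, was at 47.6 and 6.59 CPM, but its partner H2-Aa was at 0 in both libraries and Cd74, the invariant chain, at 0.550 and 0.306 CPM. Mt1, a metallothionein gene, was at 50.2 and 19.1 CPM. With ribosomal protein and mitochondrial genes left out by name, the genes lower by the most CPM at 50 IU/mL were Ppia (1745 and 3810 CPM), Ptma (1730 and 3119 CPM), Hmgb2, Crip1 (555 and 1851 CPM) and Ms4a4b (742 and 1831 CPM). Ppia shares 27.7% of its end sequence with other genes. Malat1 (8574 and 6194 CPM) and Fau (7077 and 5364 CPM) were among the genes higher by the most CPM but were within 2-fold. Fau encodes a ribosomal protein too, under a name that this choice does not reach. Of the genes with at least 100 CPM in 1 library, the lowest by difference also held Gm2682 (30.3 and 130 CPM), Atp1b3, a subunit of the sodium pump (79.5 and 336 CPM), and Nmt1, a myristoyltransferase (44.6 and 169 CPM).

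Chemokine receptors and integrins were mostly alike, with 1 higher and 1 lower of 11, Itgav at 25.4 and 9.04 CPM and Cxcr3, a receptor for inflammatory chemokines, at 23.3 and 60.9 CPM. Heat shock chaperones had 0 of 9 genes at least 2-fold apart, and ribosome biogenesis had 1 lower of 20, the helicase gene Ddx21 at 113 and 306 CPM. Ribosomal protein genes took 34.0% and 34.4% of UMIs, and of 86 genes picked by name, which include S6 kinases, only Rps29 was 2-fold apart, at 4148 and 11946 CPM. Transcript length moved with this difference. The 11 ribosomal protein genes with transcripts under 500 bases had a median of −0.68, the 55 of 500 to 1000 bases 0.09 and the 13 of 1000 to 2000 bases 0.25. Among other genes the medians were −0.27 for the 56 shortest and −0.06 to −0.15 in the longer classes. The part of transcript length or of library preparation in these differences was not tested. The 11 shortest ribosomal protein genes stood at −0.50 in the IL-2v step of day 5 and −0.02 in that of day 3. They stood at −0.03 in the IL-15 step of day 10, and in the IL-2 step of day 10 the shortest 10 stood at 0.23.

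Within the 50 IU/mL library the effector genes and the homing genes were unevenly shared among cells. Of 1272 cells with a UMI of Gzmc to Gzmg, 45.1% (42.4% to 47.9%) had an Spp1 UMI, against 17.6% (16.4% to 18.8%) of the 3676 cells without. Gzma was found in 33.8% and 14.8%, and a UMI of Klf2 or S1pr1 in 3.07% (2.19% to 4.17%) and 7.07% (6.26% to 7.95%). Cells with the late granzymes were thus richer in Spp1 and Gzma and poorer in Klf2 or S1pr1. Gzmb was found in 96.6% and 93.2%, and Trib3 or Asns in 34.5% and 27.3%. Cycling cells made up 12.9% (11.1% to 14.9%) of cells with Gzmc to Gzmg and 19.0% (17.7% to 20.3%) of cells without. They made up 16.5% of the 4656 cells with Gzmb and 31.8% (26.5% to 37.5%) of the 292 without. At 5 IU/mL the last shares were 30.0% (28.5% to 31.6%) and 33.3% (31.5% to 35.1%). At 5 IU/mL 26.9% (25.4% to 28.4%) of cells with Klf2 or S1pr1 were cycling and 37.9% (36.0% to 39.8%) of cells without, while at 50 IU/mL the shares were 19.4% (15.1% to 24.3%) and 17.3% (16.2% to 18.4%), with intervals that overlapped. For cells with and without Tcf7 the order differed between the libraries, with 26.9% (20.7% to 33.9%) and 17.0% at 50 IU/mL and 24.95% (22.4% to 27.7%) and 32.9% at 5 IU/mL. These are cells of 1 library each, the intervals cover counting error only, and the difference between the libraries was not tested.

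The same dose step on days 3 and 5 gives the earlier levels, from libraries other than those of day 10. The day 5 libraries had 261 genes higher by 2-fold or more at 50 IU/mL (4.21%) and 70 lower (1.13%), 5.34% in all, and those of day 3 had 134 (2.21%) and 41 (0.677%), 2.89% in all. Of the 282 genes higher on day 10, 100 were also higher on day 5 and 29 on day 3, and of the 345 lower genes 36 and 10 were also lower. With a pseudocount of 10 CPM the counts were 62 and 16 for the higher genes and 22 for the lower genes of day 5. Of the higher genes 225 and 191, and of the lower genes 329 and 321, reached 20 CPM in these steps. As shares of the earlier steps, these were 38.3% and 21.6% of the higher and 51.4% and 24.4% of the lower genes. Gzmd, at 424 CPM at 50 IU/mL on day 10, was at 1.12 CPM on day 5 and 0 on day 3, and at 5 IU/mL it was at 0 on both days. Gzmc was at 139 and 10.9 CPM on day 5 and 7.88 and 5.26 CPM on day 3, for 50 and 5 IU/mL in that order, and Spp1 at 11.5 and 0.217 CPM and then 0.889 and 0.482 CPM. Of these genes only Gzmc was above 20 CPM before day 10. Gzmb was already at 1938 CPM on day 5 and 1544 CPM on day 3 at 50 IU/mL, against 526 and 871 CPM at 5 IU/mL, and Tnfrsf9 at 466 and 234 CPM against 96.4 and 160 CPM.

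Part of the homing list was apart earlier, with 4 of 10 genes lower on day 3 (median −0.67) and 7 of 10 on day 5 (median −1.22), and 0 higher on either day. The regulator Klf2 was at 76.3 and 188 CPM on day 3 and 86.9 and 335 CPM on day 5, for 50 and 5 IU/mL in that order, S1pr1 at 35.3 and 100.7 CPM and then 46.5 and 278 CPM, and Tcf7, of the stemness list, at 65.2 and 164 CPM and then 57.0 and 183 CPM. Dapl1 was at 146 and 223 CPM on day 3 and 73.6 and 152 CPM on day 5. The ATF4 group stood apart from the first day sampled, with 13 of 19 genes higher on day 3, 14 of 18 on day 5 and 11 of 19 on day 10. Asns was at 132 and 34.2 CPM on day 3 and 115 and 13.0 CPM on day 5. Of the glycolysis list 0 of 17 genes were higher and 1 lower on day 3, with a median of −0.38 against 0.11 for all genes, and 1 of 18 was higher on day 5, with a median of 0.36 against 0.17. Aldoa was at 1874 and 2835 CPM on day 3 and 3553 and 2459 CPM on day 5, so its day 10 difference came with a low level at 5 IU/mL (680 CPM). Of the genes higher on day 10, 9 were at least 2-fold lower at 50 IU/mL on day 3. The list member among them in glycolysis was Aldoc (77.5 and 165 CPM), and the others included Ankrd37 (5.46 and 35.3 CPM), Egln3 (19.9 and 51.2 CPM) and Hilpda (12.4 and 36.3 CPM), named here after their values were seen. Replication genes were not lower earlier. On day 5 7 of 39 S phase genes were higher and 0 lower, and Mki67 was at 588 and 398 CPM, before 112 and 281 CPM on day 10.

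**Figure D5:**
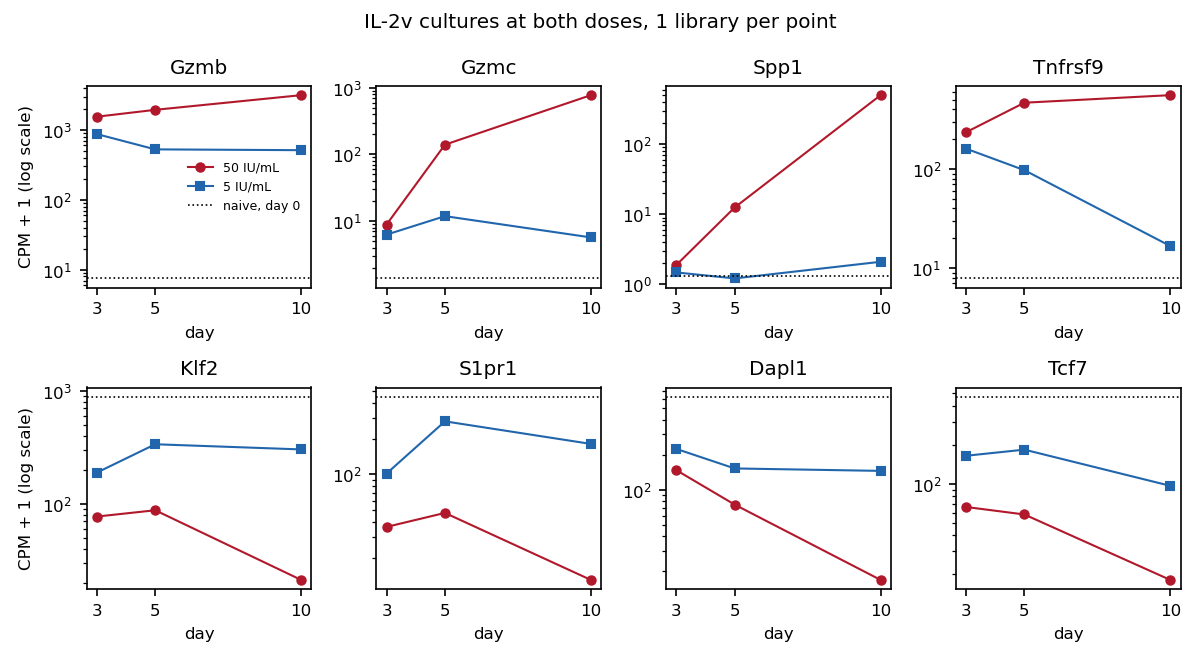
CPM + 1 (y axes, log scales that differ between panels) of 8 genes in the IL-2v libraries of days 3, 5 and 10 at 50 IU/mL (red circles) and 5 IU/mL (blue squares), 1 library per point, with the naive level of day 0 dotted. Gzmc and Spp1 are farthest apart on day 10, Klf2, S1pr1 and Tcf7 are apart on day 3, and Dapl1 is lower at 50 IU/mL on each day.

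The dose steps of IL-2 and IL-15 on day 10 rest on other libraries. The treatment labels of the 50 IU/mL libraries name Interleukin-3 and Interleukin-16 there, and the titles, which say IL-2 and IL-15, were followed. The IL-2 step had 383 genes higher by 2-fold or more at 50 IU/mL (6.57%) and 847 lower (14.5%), 21.1% in all, and the IL-15 step had 181 (3.33%) and 129 (2.37%), 5.7% in all. Of the 282 genes higher with IL-2v, 151 were also higher with IL-2 (53.5% of these genes and 39.4% of those of IL-2) and 48 with IL-15 (17.0% and 26.5%). Of the 345 lower genes 169 were also lower with IL-2 (49.0% and 19.95%) and 14 with IL-15 (4.06% and 10.9%), while 28 were higher with IL-15. With a pseudocount of 10 CPM the lower genes shared were 99 with IL-2 and 6 with IL-15. Of the higher genes 275 reached 20 CPM in the IL-2 step but only 116 in the IL-15 step, and of the lower genes 247 and 246, so the IL-15 count of higher genes is taken from fewer genes. Gzmd was at 3602 CPM at 50 IU/mL IL-2 and 14.2 CPM at 5 IU/mL, and at 0 with both doses of IL-15, where Gzmc was at 0.220 CPM and 0. Klf2 was at 8.54 and 205.4 CPM with IL-2 and 460 and 1016 CPM with IL-15, and Asns at 146 and 7.63 CPM with IL-2 and 6.72 and 5.15 CPM with IL-15. All 17 tested glycolysis genes were higher at 50 IU/mL with IL-15 (median 2.29) and 3 of 17 with IL-2 (median 0.77). Cholesterol synthesis was 2-fold higher in 14 of 18 genes with IL-2 and in 0 of 22 with IL-2v. Cish, Tnf, Klrk1 and Iigp1 were the 4 genes higher with IL-2v and lower with IL-2, Cish at 163 and 377 CPM there, and are named after their values were seen. The differences between these steps were not tested.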

How the data were processed

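Single-cell RNA of 21 libraries was deposited by the authors as raw UMI counts per gene and cell, per the file headers. Cell Ranger, Seurat 3.0.2 and 4.0.1 and the mm10 build are named in the submitters' processing notes. The annotation, cell filters and doublet removal are not given in the sources used here. Cells held 1048 to 13317 UMIs at 50 IU/mL and 1021 to 13399 at 5 IU/mL, with none above 10% mitochondrial UMIs. Cells may thus have been filtered before deposit. All barcodes were used, no doublet caller was run, and no cells were clustered. Counts were summed per library and scaled to CPM with python 3.11.15, numpy 2.4.6, scipy 1.17.1 and pandas 2.3.3, and edgeR 4.0.16 in R 4.3.3 gave only the TMM factors used as an alternative scaling. A pseudocount of 1 CPM was added before log2. A gene entered with at least 20 CPM in either library and was counted as higher or lower at 2-fold. Intervals are 95%, exact Poisson for CPM and exact Clopper-Pearson for shares. The calculation was tried on simulated counts with known fold changes and counting error only. That trial covers the arithmetic and not the spread between libraries. Genes named are the 12 highest and 12 lowest differences (100 CPM or more needed in the library where the gene was higher), the 5 with the largest gain and loss in CPM other than ribosomal protein and mitochondrial genes, and members of 30 lists and of the cell type markers. Ribosomal protein genes were told by symbol throughout, so Fau was not counted among them. The samples, lists and rules were chosen with earlier results of these data known. Positions are from GENCODE vM21 and start regions from RefSeq, both GRCm38, and 17234 of 17516 symbols matched. Alternatives were other scalings, pseudocounts, filters on genes, subsets of cells and thinning depths. Day 7 was not analysed here, and some listed genes are not reported here. Libraries were 1 per condition, so no difference has a replicate check.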

Additional observations from a re-analysis of the deposited data

Results flagged for a closer look

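Dose differences that pointed the other way in another step are given as values, since with 1 library per condition the difference between steps was not tested. The 3 genes of dividing cells Nusap1, Stmn1 and Hist1h1b were lower at 50 IU/mL with IL-2v on day 10 and higher at 50 IU/mL with IL-15 on day 10. Nusap1, a spindle protein gene, had a log2 difference of −1.89 with IL-2v and 4.13 with IL-15, where it was at 36.0 and 1.12 CPM. Stmn1 had −1.90 and 3.37, and was at 149 and 13.5 CPM with IL-15. Hist1h1b had −1.87 and 5.00, and was at 58.5 and 0.858 CPM with IL-15. At 50 IU/mL these genes were thus at like levels with both cytokines, and the 5 IU/mL libraries differed.

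Gene lists also pointed opposite ways. The effector cytokines and chemokines had a median of 1.16 with IL-2v and −1.16 with IL-2 on day 10. These are medians of 5 and 6 genes, and with IL-2 2 were at least 2-fold higher and 3 lower, so its members went both ways. The killer lectin-like receptors had medians of 1.58 and −1.46 in the same steps, each over 3 genes, with 2 higher in the former and 2 lower in the latter. The metallothionein and zinc exporter list had a median of 1.35 with IL-2v on day 10, from Mt1 alone, and of −1.94 over 2 genes with IL-2v on day 3, where Mt1 was at 31.1 and 167 CPM.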

How the results depend on the processing

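No paired analysis was possible because each condition had 1 library. Against 282 higher and 345 lower genes, counts were 850 and 604 with no filter on CPM (median of all genes −0.0128), 80 and 98 with at least 100 CPM, 200 and 181 with a pseudocount of 10 CPM, 298 and 276 with the mean of single-cell CPM, and 392 and 428 with totals free of ribosomal protein and mitochondrial genes. Higher genes thus outnumbered lower ones with no filter, a pseudocount of 10 CPM, the single-cell mean and TMM scaling (314 and 299), against the order in the report. Of the main calls, 263 higher and 314 lower genes were shared when cells above 5% mitochondrial UMIs or under 500 genes were left out, and 267 and 182 among cells lacking Mki67 and Top2a UMIs. Cycling shares at 50 and 5 IU/mL were 12.2% and 24.5% with thinning to 1000 UMIs, 25.01% and 40.6% with none, and 60.9% and 77.2% by at least 3 UMIs of the cell cycle lists, a rule that also took 72.8% of naive cells. The 5 IU/mL share was 29.9% without possible doublets, cells above 2 times the median UMI count. With a pseudocount of 10 CPM the genes also apart elsewhere numbered 62 higher and 22 lower on day 5, 16 higher on day 3, 99 lower with IL-2 and 6 lower with IL-15, the last 8 with TMM scaling. All 204 alternative values of 34 named genes kept their direction, as did 91 of 91 for the 13 lists with a median of at least 1 in size, 200 of 210 over all lists (the 10 changes of sign were in lists with medians of −0.25 to 0.19), and the order of 114 of 114 pairs of shares. The 34 genes and 13 lists were picked for large differences in these same libraries, so a kept direction is no separate check. Sizes were less stable. Of the main values 19 moved beyond their counting interval or, for counts, a set factor, and 31 did not. Of the other values 345 moved and 297 did not. Depth limits genes with few UMIs, as Gzmd to Gzmg at 5 IU/mL. The causes of these shifts were not tested.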
